A study of Mus musculus with 2 samples.

Results

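The genes described here are 10 parts of the JAK-STAT3 cytokine pathway: the receptor chains Il22ra1, Il10rb, Il6ra, Il6st and Lifr, the kinases Jak1 and Jak2, the transcription factor Stat3, and the feedback inhibitors Socs1 and Socs3. They were chosen by symbol, and all 10 were found among the 19294 genes of the count table. Transcripts were counted by mRNA-seq in mouse intestinal organoids (mIOs), which are cultures of intestinal epithelium grown from jejunal crypts in Matrigel. The control group and the DSS group, each of 1 library, were both of the genotype Lgr5-EGFP-IRES-creERT2, in which an EGFP and creERT2 cassette sits at the Lgr5 locus, and both were grown with EGF, Noggin and R-spondin. The DSS group received dextran sulfate sodium (DSS), a polysaccharide used to injure the intestinal epithelium, for 4 days, and its concentration in the sequenced culture is not given in the sources used here. The comparison asks how the transcripts of the IL-6/JAK/STAT3 pathway differed between treated and untreated organoids.

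Cytokines of the IL-6 and IL-10 families act through receptors that have no enzyme activity of their own. Ligand binding brings receptor chains together, the JAK kinases bound to them phosphorylate the receptor and STAT3, and STAT3 enters the nucleus and switches on target genes, among them Socs3, whose product blocks the receptor complex. In the intestine, IL-22 from lymphoid cells acts on the epithelium through IL-22RA1 and IL-10RB, and STAT3 in epithelial cells is known for its part in barrier repair and in the making of antimicrobial proteins. Phosphorylation of STAT3, the usual measure of pathway activity, cannot be read from transcript counts.

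Depth was 65493032 counts in the control library and 59746968 in the DSS library. Values are given as counts, as CPM (counts per 1000000 after TMM scaling, which corrects the library total for a few dominant genes) and as the log2 ratio of CPM, DSS over control, with an exact 95% interval from the counts. With 1 library per group there is no replicate check and no test, and each interval covers counting error only. A log2 ratio of 1, a doubling, was used as a line to describe size. Of 17235 genes compared, which had 10 or more counts in either library, 19.3% were at 1 or more, 20.2% were at -1 or less, and the median was -0.06.

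The libraries also differed in cell type markers. Summed over lists, 5 stem cell markers went from 832 CPM in the control library to 130 CPM in the DSS library and 5 cycling cell markers from 940 to 59.5 CPM, while 7 enterocyte markers went from 1500 to 19081 CPM and 5 goblet cell markers from 703 to 11136 CPM. The sum of 5 enteroendocrine markers was 804 and 4147 CPM, that of 4 Paneth cell markers 279 and 136 CPM, and that of 5 tuft cell markers, 4 of them in the table, 8.87 and 4.39 CPM. The labels name the cells intestinal stem cells, and markers of other intestinal cell types were also counted in both libraries. Sums of different lists are not corrected for transcript length, so they do not rank the cell types within a library. Of 12 immune markers, 7 were not in the table, Ptprc, Cd3e and Adgre1 among them, and the 5 others summed to 12.4 CPM in the control library and 23.4 CPM in the DSS library, mostly from Itgam and Cd68. Of 10 mesenchymal and endothelial markers, 5 were in the table, at 1.61 and 3.11 CPM in sum. Epithelial markers were high in both libraries, with 7 genes at 4927 and 7920 CPM. The part of these shifts in the values below was not tested, and in bulk RNA a smaller number of cells of a type cannot be told apart from less RNA per cell.

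Of the 10 genes, 8 were higher in the DSS library and 2 were lower, where 48% of all genes compared were above 0 and 52% below. The median log2 ratio was 0.83. Il22ra1, Jak2, Il10rb and Socs3 were at 1 or more, 4 of 10 genes beside 19.3% of all genes, and Lifr alone was at -1 or less, 1 of 10 beside 20.2%. At 2 or more were 0 of 10, beside 7.87% of all genes, and at -2 or less was Lifr, 1 of 10 beside 6.54%. Of the 7 genes that reached 1000 counts in either library, 4 were at 1 or more, beside 12.8% of the 8960 genes so abundant, and 0 were at -1 or less, beside 17.7%. The 8 genes above 0 and the 2 below 0 were the same in number under all 4 library scalings. When the libraries were scaled by their total counts only, every log2 ratio was lower by 0.26, and 2 genes, Il22ra1 at 1.13 and Jak2 at 1.01, were at 1 or more, beside 15.4% of all genes, so that 2 of 10 was near the share of all genes.

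**Figure D1:**
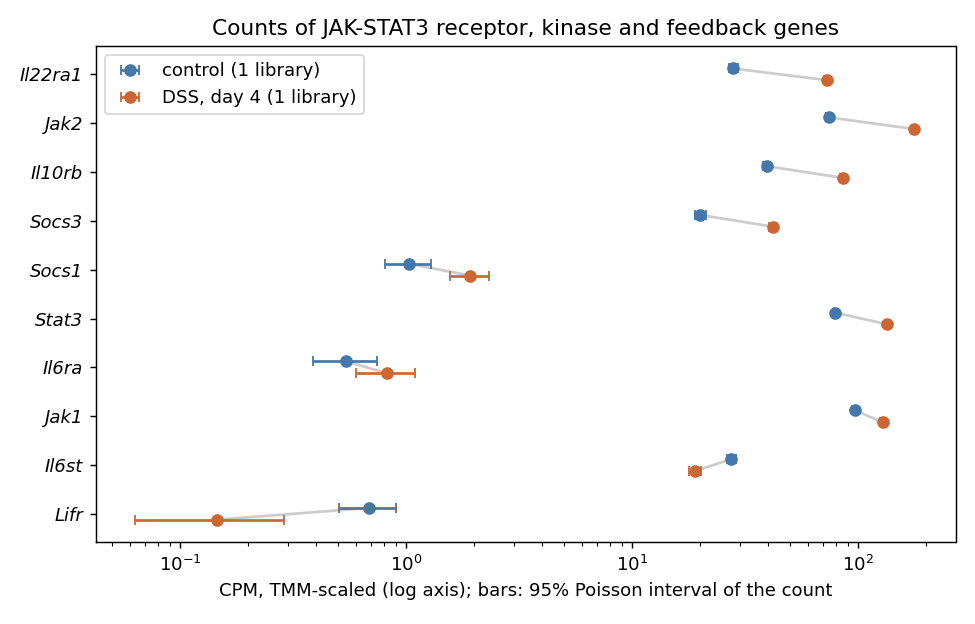
CPM of the 10 genes on a log axis in the control library (blue) and the DSS library (orange), 1 library each, with 95% Poisson intervals of the counts. The genes are ordered by log2 ratio. Il22ra1 to Jak1 lie further right in the DSS library, Il6st and Lifr further left, and the intervals of Il6ra overlap.

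The chains of the IL-22 receptor were both higher in the DSS library. Il22ra1 (NCBI gene 230828), the chain that gives the receptor its specificity for IL-22 and that in the intestine is made by epithelial cells, had 2010 counts in the control library and 4008 in the DSS library, or 28.1 and 73.3 CPM. Its log2 ratio of 1.38 (interval 1.31 to 1.46), a 2.61-fold difference, was the highest of the 10 and higher than those of 86.0% of all genes compared. Il10rb (gene 16155), the shared second chain of the receptors for IL-10, IL-22 and the type III interferons, had 2826 and 4697 counts, or 39.5 and 85.9 CPM, and a log2 ratio of 1.12 (1.05 to 1.19). The count ratio of Il22ra1 to Il10rb within a library, which does not depend on library scaling, went from 0.711 to 0.853, a log2 change of 0.26 (0.16 to 0.37). Both chains of this receptor were thus more abundant relative to the library total, with Il22ra1 the more so.

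Among related chains, Ifnlr1, which pairs with IL-10RB to bind type III interferons, had 1133 and 2103 counts and a log2 ratio of 1.28 (1.18 to 1.39). Il20rb, the shared chain of the receptors for IL-19, IL-20 and IL-24, had 124 and 184 counts and a log2 ratio of 0.96 (0.62 to 1.30), and is named here after its value was seen, as is Il22ra2. Il22ra2 encodes a secreted binding protein that keeps IL-22 from its receptor, and it had 8 counts in the control library and 37 in the DSS library, which gave a log2 ratio of 2.60 (1.47 to 3.91). It reached 10 counts in the DSS library only, so its ratio is a description. Il10ra, the ligand-specific chain for IL-10, and Il20ra, a partner chain of Il20rb, were not in the table, which lists genes with at least 1 count in each library.

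The chains of the IL-6 family receptors differed from this. Il6st (gene 16195) encodes gp130, the signaling chain shared by IL-6, IL-11, LIF and other cytokines of the family. It had 1969 counts in the control library and 1044 in the DSS library, or 27.5 and 19.1 CPM, and its log2 ratio was -0.53 (-0.64 to -0.42). This was a level 1.44-fold lower in the DSS library, and 32.6% of all genes had a lower ratio. Lifr (gene 16880), which pairs with gp130 to bind LIF, had 49 and 8 counts, or 0.685 and 0.146 CPM. Its log2 ratio of -2.23 was the lowest of the 10, and 5.06% of all genes had a lower one. The 8 counts in the DSS library leave the size loosely bounded, with an interval from -3.52 to -1.14, and the filter of at least 10 counts in both libraries leaves the gene out.

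Il6ra (gene 16194), the chain that binds IL-6, had 39 counts in the control library and 45 in the DSS library, or 0.545 and 0.823 CPM. Its log2 ratio was 0.59 (-0.06 to 1.25), so a difference was not detectable at this depth. Relative to Il6st, the counts of Il6ra went from 0.0198 to 0.0431 and those of Lifr from 0.0249 to 0.00766. The log2 changes of these ratios were 1.12 (0.46 to 1.79) and -1.70 (-2.99 to -0.60). Relative to Il6st, the counts of the specific chains for IL-6 and for LIF thus changed in opposite directions. Il6ra itself showed no detectable difference, and Il6st was lower in the DSS library. Both Il6ra and Lifr were scarce beside Il6st.

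Of the other IL-6 family chains, Il11ra1, which binds IL-11, had 415 and 609 counts and a log2 ratio of 0.94 (0.76 to 1.13). Cntfr had 78 and 54 counts and a log2 ratio of -0.14 (-0.67 to 0.38). Osmr, the chain for oncostatin M, and Il27ra and Il31ra were not in the table. Il11ra1 and Cntfr were named after their values were seen.

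**Figure D2:**
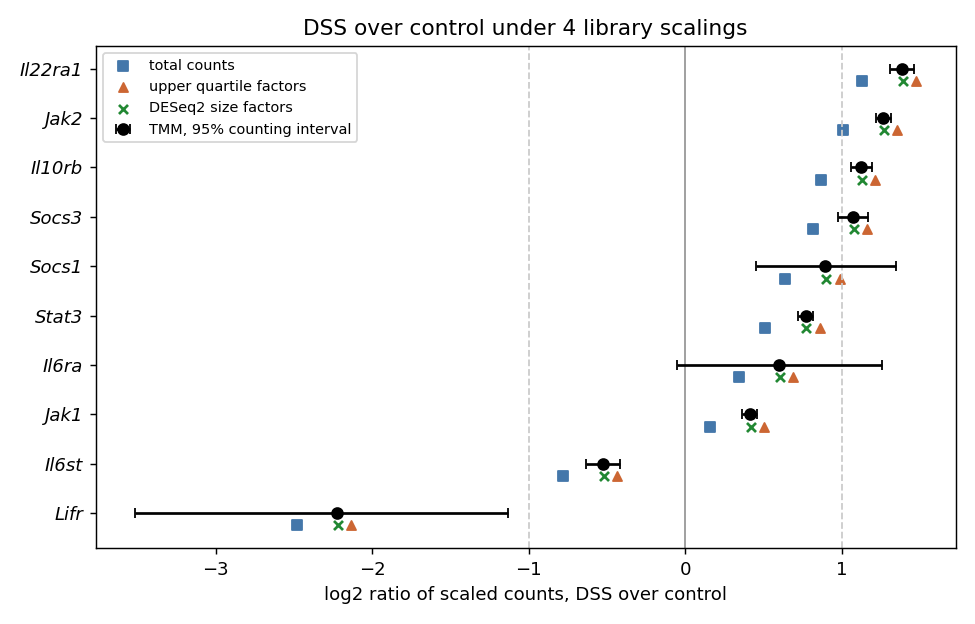
log2 ratio of scaled counts, DSS over control, for the 10 genes. Black points with bars are TMM-scaled ratios with 95% counting intervals, colored marks are 3 other library scalings, and dashed lines mark 1 and -1. A scaling shifts every gene by the same amount, so the order cannot change. Total counts place every gene 0.26 lower, and Lifr and Il6ra have the widest bars.

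The 2 kinases that serve these receptors differed in size of change. Jak1 (gene 16451), used by nearly all receptors of this class, had 6912 counts in the control library and 7024 in the DSS library, or 96.6 and 128 CPM, and its log2 ratio was 0.41 (0.36 to 0.46). Jak2 (gene 16452), used by gp130 receptors and by those for growth hormone and prolactin, had 5304 and 9726 counts, or 74.1 and 178 CPM, and its log2 ratio was 1.26 (1.21 to 1.31). The counts of Jak1 were the higher in the control library and those of Jak2 in the DSS library. The count ratio of Jak2 to Jak1 went from 0.767 to 1.38, a log2 change of 0.85 (0.78 to 0.92), which holds whatever the library scaling. With total counts the log2 ratio of Jak1 was 0.16, and with upper quartile factors it was 0.50. Tyk2, the kinase that binds IL-10RB, is named after its value was seen, at 2955 and 2282 counts and a log2 ratio of 0.02 (-0.06 to 0.09).

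Stat3 (gene 20848) had 5677 counts in the control library and 7380 in the DSS library, or 79.3 and 135 CPM. The log2 ratio was 0.77 (0.72 to 0.82), a 1.70-fold difference. In the GENCODE annotation, exons of Stat3 and of Stat5a, on opposite strands, overlap. Il6ra and Jak1 also overlap a gene on the opposite strand, Gm42809 and Raver2. Il10rb overlaps Gm21970 on the same strand, where strand cannot separate the reads. The part of these overlaps in the counts was not tested. The libraries were stranded, but whether strand was used in counting is not given in the sources used here. Stat5a itself had 843 and 229 counts and went the other way.

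The feedback inhibitors were both higher in the DSS library. Socs3 (gene 12702), which binds gp130 and the JAK kinases and limits STAT3 signaling, had 1439 counts in the control library and 2310 in the DSS library, or 20.1 and 42.3 CPM. Its log2 ratio was 1.07 (0.98 to 1.17), a 2.10-fold difference. Socs1 (gene 12703), better known for its action on interferon receptors, had 74 and 105 counts, or 1.03 and 1.92 CPM, and a log2 ratio of 0.89 (0.45 to 1.34). The counts of Socs3 relative to Stat3 went from 0.253 to 0.313, a log2 change of 0.30 (0.20 to 0.41), and those of Socs1 relative to Socs3 from 0.0514 to 0.0455, a change of -0.18 (-0.63 to 0.28). The difference was thus larger for Socs3 than for Stat3, while an unequal change of the inhibitors was not detectable at this depth.

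Socs3 is a known direct target of STAT factors, which bind the spaced palindrome TTCNNNGAA, where N is any base and both strands read alike. Promoter windows of 300 bases, from 250 before to 50 after the start site, were taken from RefSeq on GRCm38.p6 and matched 9 of the 10 genes with 10 windows. The letters occurred in 1 of these 10 windows, that of Socs3, which was near the 8.3% of the 32851 windows of all genes. In lists described below they occurred in 15.6% of 32 windows of other receptor chains and 11.8% of 34 windows of STAT3 targets. They also occurred in 9.09% of 11 windows of ligands and in 0 of 10 windows of other kinases and STAT factors. The 250 bases before the Socs3 start, on chromosome 11 at chr11:117969367-117969616, minus strand, are shown with capitals from -154 to -146. They hold the only match among the 10 genes of the set. GENCODE vM21 starts the coding transcript of Socs3 further downstream. Of the 15 other negative regulators, 8 had a window, and Cish, an inhibitor of the same family that acts on STAT5, was the only one with the letters. Its 2 copies lie at chr9:107296659-107296678, plus strand, from the first base of the RefSeq transcript on, and are shown for comparison with capitals for each copy.
Socs3: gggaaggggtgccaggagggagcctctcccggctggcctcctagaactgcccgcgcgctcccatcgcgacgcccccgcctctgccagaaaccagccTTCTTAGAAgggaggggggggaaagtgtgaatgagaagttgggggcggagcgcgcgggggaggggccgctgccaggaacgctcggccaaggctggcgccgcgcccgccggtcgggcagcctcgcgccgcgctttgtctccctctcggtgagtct
Cish: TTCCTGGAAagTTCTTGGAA
Cish had 577 counts in the control library and 413 in the DSS library, and a log2 ratio of -0.09 (-0.28 to 0.09), beside 1.07 for Socs3. A match is a description of the letters and not of a bound site.

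**Figure D3:**
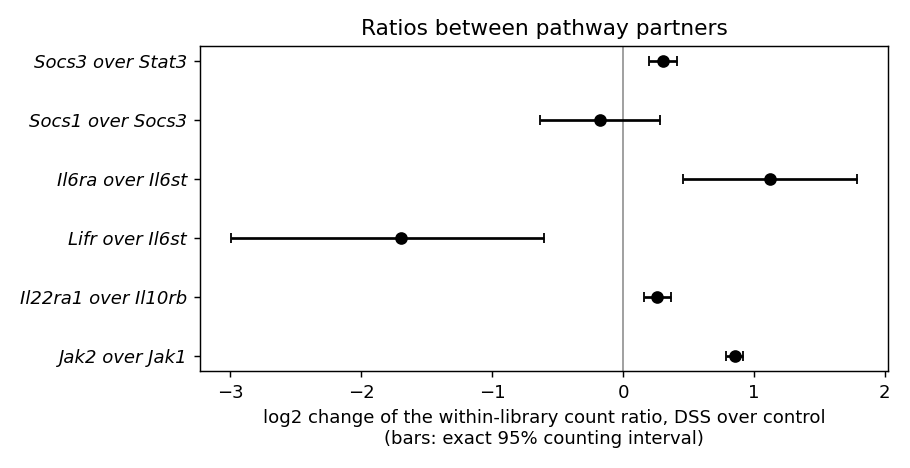
log2 change, DSS over control, of the count ratio of 6 pairs of genes within a library, with exact 95% counting intervals; library scaling cancels. Jak2 over Jak1 and Il6ra over Il6st lie above 0, Lifr over Il6st lies below 0, and the interval of Socs1 over Socs3 includes 0.

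Placed in order of log2 ratio, neighbors were often not separable by their counts. Il22ra1 exceeded Jak2 by 0.12 (0.03 to 0.21) and Jak2 exceeded Il10rb by 0.14 (0.06 to 0.23). From Il10rb through Socs3, Socs1, Stat3 and Il6ra to Jak1, the interval of each step included 0. Most of these steps have Socs1 or Il6ra on a side, whose low counts give wide intervals. Genes further apart in this stretch were separable by their counts. Socs3 exceeded Stat3 by 0.30 (0.20 to 0.41), and the intervals of Il10rb, Stat3 and Jak1 did not overlap. Jak1 then exceeded Il6st by 0.94 (0.82 to 1.06), and Il6st exceeded Lifr by 1.70 (0.60 to 2.99).

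To compare levels between genes, counts were divided by the length of the longest GENCODE transcript and scaled to a sum of 1000000 over genes with a length (TPM). The 10 genes fell into an abundant and a scarce group in both libraries. In the control library, 6 genes were at 10 TPM or more, led by Il10rb at 44.6 TPM and Jak1 at 41.1 TPM, followed by Jak2 at 30.8, Stat3 at 27.4, Il22ra1 at 22.8 and Socs3 at 16.5 TPM. In the DSS library the same 6 genes were above that level, in the order Il10rb at 83.1, Jak2 at 63.3, Il22ra1 at 51.1, Jak1 at 46.9, Stat3 at 40.0 and Socs3 at 29.6 TPM. Il6st lay between the groups, at 6.63 and 3.94 TPM. Socs1 was at 0.743 and 1.18 TPM, and the ligand-binding chains Il6ra, at 0.132 and 0.171 TPM, and Lifr, at 0.148 and 0.0271 TPM, were the lowest.

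Per length, the chains that bind IL-22 were at a higher level than those that bind IL-6 and LIF in both libraries. The level of Il6st was 50.3 times that of Il6ra in the control library and 23.1 times in the DSS library, while Il10rb was at 1.95 and 1.63 times the level of Il22ra1. Levels depend on the transcript taken as the length. With the median length of a gene's transcripts, Il6st was at 15.5 TPM in the control library and 9.61 TPM in the DSS library, beside 15.8 and 36.9 TPM for Il22ra1. With that length Jak1, at 52.5 and 62.4 TPM, was above Jak2, at 24.0 and 51.5 TPM, in both libraries. Neighbors in the order of levels cannot be separated without replicates.

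The other parts of the pathway were read from 5 further lists of 98 genes in all, of which 69 were in the table and 67 reached 10 counts in either library. Of these 67 genes, 13 were at a log2 ratio of 1 or more, beside 19.3% of all genes, and 8 were at -1 or less, beside 20.2%. The 13 and the 8 each include a gene that reached 10 counts in only 1 library. Receptor chains had the highest median of the 5 lists, and negative regulators the lowest.

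Of 16 ligands, 9 were not in the table, Il6, Il22, Il10 and Osm among them, and their direction is not known here. Lif, the ligand of Lifr and gp130, had 1367 counts in the control library and 610 in the DSS library, or 19.1 and 11.2 CPM, and its log2 ratio was -0.78 (-0.92 to -0.64). Clcf1, a ligand of the CNTF receptor, had 101 and 147 counts and a log2 ratio of 0.93 (0.55 to 1.31). Ctf1, cardiotrophin, had 174 and 110 counts and a log2 ratio of -0.27 (-0.63 to 0.08). Lif, its receptor chain Lifr, with 8 counts in the DSS library, and gp130 were thus all lower in the DSS library. With upper quartile factors, which raise every ratio, they were at -0.69, -2.14 and -0.44. Il11, whose product also signals through gp130, is named after its value was seen. It had 12 and 29 counts and a log2 ratio of 1.66 (0.65 to 2.77), and its receptor chain Il11ra1 was at 0.94. Over the 6 ligands compared, 3 were above 0 and 3 below, near the 48% and 52% of all genes, with a median of 0.03.

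Of 26 other receptor chains, 14 were in the table, with a median log2 ratio of 0.86. Above 0 were 13, beside 48% of all genes, and 4 were at 1 or more, beside 19.3%. With total counts 12 were above 0, 3 were at 1 or more, beside 15.4%, and the median was 0.60, and with upper quartile factors 7 were at 1 or more, beside 21.2%. Il13ra1, a chain of the IL-4 and IL-13 receptor, had 1845 and 4628 counts and a log2 ratio of 1.72 (1.64 to 1.79). Ifngr1, the ligand-binding chain for interferon gamma, had 16513 and 29172 counts, or 231 and 534 CPM, and a log2 ratio of 1.21 (1.18 to 1.24). Of these chains 12 were not in the table, among them Il2rg, Il7r, Csf3r and Csf2rb, which are known from blood cells.

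The other kinases and STAT factors did not all share the direction of Jak2 and Stat3. Of 7 genes compared, 4 were above 0 and 3 below, near the 48% and 52% of all genes. The median was 0.02, and with total counts 2 were above 0. Stat2, which carries the type I interferon signal, was at 0.69 (0.61 to 0.77). Stat5a had 843 and 229 counts, or 11.8 and 4.19 CPM, and a log2 ratio of -1.49 (-1.71 to -1.28), and its neighbor Stat5b was at -0.59 (-0.71 to -0.47). Stat5a and Stat5b are close paralogs, and reads shared between them could be split by the counting.

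Of 15 other negative regulators, which include the remaining SOCS genes, PIAS genes and phosphatases, all were in the table. Of these, 11 were below 0, beside 52% of all genes. None was at 1 or more, beside 19.3% of all genes, and none at -1 or less, beside 20.2%. The number below 0 was 11 under each of the 4 scalings. With total counts 2 were at -1 or less, beside 26.2% of all genes. The median was -0.17. Ptpn6, the phosphatase SHP-1, had 1217 and 1612 counts and a log2 ratio of 0.79 (0.69 to 0.90). Pias2, at -0.75 (-0.85 to -0.65), and Socs6, at -0.75 (-0.84 to -0.65), were lowest. Socs1 at 0.89 and Socs3 at 1.07 had higher ratios than these 15 genes, but the interval of Socs1 reached down to 0.45.

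Known targets of STAT3 were divided. Of 33 listed genes 26 were in the table and 25 were compared, with a median of 0.41. Of the 25 genes, 15 were above 0 and 10 below, beside 48% and 52% of all genes. At 1 or more were 8 of the 25 genes, beside 19.3% of all genes. At -1 or less were 6 of the 25, near the 20.2% of all genes. With total counts these numbers were 5, beside 15.4%, and 7, beside 26.2%, so that the share at -1 or less was again near that of all genes. The highest were secreted lectins of the REG family, Reg1 with 1883 and 28181 counts and a log2 ratio of 4.29 (4.22 to 4.36), and Reg3a with 491 and 5389 counts and a log2 ratio of 3.84 (3.71 to 3.98). REG genes have similar copies, so their separate counts are uncertain. Ccnd1, cyclin D1, had 8202 and 819 counts and the lowest ratio, -2.94 (-3.04 to -2.83).

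Other targets are named after their values were seen. Fut2, a fucosyltransferase of the epithelium, was at 2.62 with 214 and 1007 counts. Of the REG genes, Reg3b was at -1.41 with 3729 and 1073 counts, and Reg3g at 0.41 with 7303 and 7428. Irf1 was at 1.82 with 446 and 1200 counts, Nfkbiz at 1.51 with 2164 and 4699, and Fos at 1.08 with 11789 and 18997. Timp1 was at 1.21 with 17 and 30 counts, and Cebpd, with 223 and 341 counts, was just above 1. On the lower side, Tfrc was at -1.17 with 84189 and 28529 counts, and Icam1 at -1.35 with 40 and 12. The cell division gene Birc5 was at -2.38 and Myc at -1.97, in libraries whose cycling cell markers differed as given above. Bcl3, a partner of NF-κB, was at -0.79 and Pim1, a kinase, at -0.03, while Junb was at 0.92 and Mcl1, a survival factor, at 0.59. Genes listed as STAT3 targets thus lay on both sides of 0, from -2.94 to 4.29, beside 0.77 for Stat3 itself. Saa1, Saa3 and Lcn2 were not in the table.

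**Figure D4:**
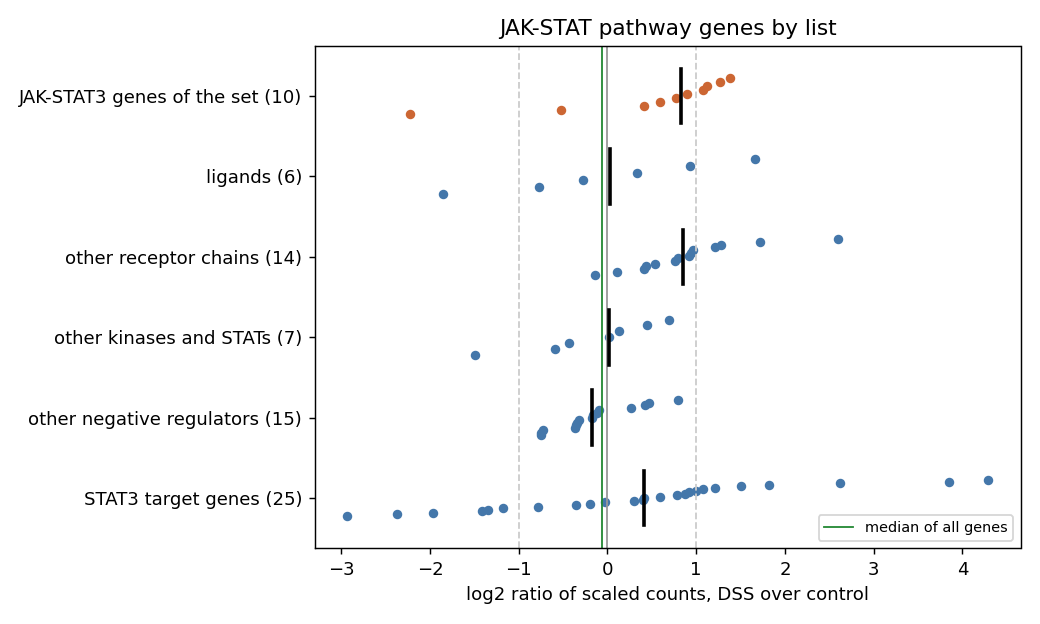
log2 ratio of scaled counts, DSS over control, for each gene with 10 or more counts in either library, by list, with the number of genes in parentheses. Orange points are the 10 genes, black bars are list medians, dashed lines mark 1 and -1 and the green line is the median of all genes at -0.06. Receptor chains sit mostly right of 0 with a median of 0.86, negative regulators stay between -1 and 1, and STAT3 targets run from -2.94 to 4.29.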

How the data were processed

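The authors deposited unnormalized read counts for each gene. Files of single samples are named as FPKM but held the same counts for all 19294 genes. The submitters' processing notes name HISAT2 and StringTie; versions, genome build and use of strand are not given in the sources used here. The smallest count in either library was 1, so only genes counted in both libraries are listed.

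Scaling used TMM factors (edgeR 4.0.16, R 4.3.3), 1.09 for control and 0.915 for DSS. Intervals are exact Clopper-Pearson intervals for a gene and exact conditional intervals of the odds ratio for a pair (scipy 1.17.1), at 95%. With 1 library per group no test was made. Single-library bars are exact Poisson intervals. The scripts were checked on simulated counts. A transcript length in GENCODE vM21 (GRCm38) was found for 17255 genes.

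The genes, lists, pairs and markers were chosen with earlier results of these data known. Named were all 10 genes and, of each other list, the 3 with the largest absolute log2 ratio among genes that reached 50 counts in either library; the text marks others. The motif search and the search for overlapping exons were chosen after the data were seen. Alternatives were library scaling by total counts, by upper quartile factors or by DESeq2 1.42.0 size factors, thinning, a prior count of 2, count minimums, a line of 2 and the median transcript length. A minimum of 1000 counts and centering on the median of all genes were chosen later, with the data seen.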

Additional observations from a re-analysis of the deposited data

How the results depend on the processing

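No paired analysis was possible because each group has 1 library. The direction of all 10 log2 ratios held under total counts, DESeq2 size factors and upper quartile factors, and with thinning or a prior count of 2. With total counts, 2 genes in place of 4 were at 1 or more, the median of the 10 was 0.57 in place of 0.83, and of all genes past 1 or -1 37.1% were higher in the DSS library, in place of 48.9%. This scaling lowers every gene by 0.26. With upper quartile factors the median was 0.92. At a line of 2, none of the 10 was higher (0 genes) and Lifr remained lower. A minimum of 10 counts in both libraries, or of 1000 counts in a library, left 0 genes at -1 or less, since Lifr was not included. The within-library ratios of the 6 pairs stayed inside their intervals with a prior count and with thinning. Under median transcript lengths 7 genes in the control library were at 10 TPM or more, in place of 6, since Il6st was then included. Depth limits Il6ra, Lifr and Socs1, and the spread between cultures is not known for any gene.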
